A study of Ramazzottius varieornatus with 18 samples.

Results

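The step from the third to the fourth day of juvenile life was compared in *Ramazzottius varieornatus*, a terrestrial tardigrade that survives drying. The comparison took the 3 libraries labelled Juvenile 4d and the 3 labelled Juvenile 3d, 6 of the 18 libraries of the series, and all transcripts were followed. The study discusses Juvenile 4d as the time of the initial molting of this species. All 18 libraries came from whole animals of the strain YOKOZUNA-1, reared on agar with the alga *Chlorella vulgaris*, and covered Juvenile 2d to 7d with 3 libraries per day. The labels name no treatment, genotype or sex, and by their labels the 2 groups differ only in day. The number of animals in a library is not given in the sources used here. They also do not say whether replicates came from separate cultures, so the p-values measure the spread between libraries, which may be technical.

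Tardigrades grow through molts, in which the old cuticle is shed and a new one is laid down by the epidermis beneath it. In arthropods the timing is set by pulses of ecdysteroid hormone and a cascade of nuclear receptors. Animals of this species also carry large amounts of heat-soluble proteins that are found only in tardigrades and are linked to their survival of drying, together with expanded families of antioxidant enzymes. The study lists transcripts of 11 families outside the molting pathway, which are used here under its names. They are the HOX transcription factors, argonautes, glutathione S-transferases (GST), superoxide dismutases (SOD), catalases, thioredoxins, cytosolic (CAHS) and secretory (SAHS) abundant heat-soluble proteins, the DNA-binding damage suppressor Dsup, and the mitochondrial proteins LEAM and MAHS. Together they hold 101 transcripts. Apart from these and the molting pathway, the sources pair no name or genome position with the transcript identifiers.

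Levels are given in TPM, for which the estimated read count of a transcript is divided by its effective coding length and scaled to a fixed total per library. In RNA of whole animals, fewer cells of a type and less RNA per cell cannot be told apart. The 6 libraries held 3236622 to 4673295 estimated counts. The lowest total of the 18 libraries was 1250604, in Juvenile 7d replicate 3. Differences were tested on the counts with edgeR in a single fit to the 18 libraries, and a transcript was called when its p-value, adjusted over all 10436 transcripts tested, was at most 0.05. Log2 fold changes are those of this fit, Juvenile 4d minus Juvenile 3d, with a standard error (SE). Libraries of the same day correlated with each other at 0.959 to 0.970 (Pearson's r of log2(TPM + 1) across 10464 transcripts, which are not independent replicates). Between the days the values were lower, from 0.850 for Juvenile 3d replicate 3 with Juvenile 4d replicate 1 to 0.939 for Juvenile 3d replicate 1 with Juvenile 4d replicate 3.

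The stage label was set against a pair of nuclear receptors that act in sequence in the ecdysteroid cascade of insects. HR3 (g6536.t1), the earlier of them, had 69.4, 188 and 27.4 TPM at Juvenile 3d and 692, 612.2 and 446 TPM at Juvenile 4d, and bFtz-F1 (g4792.t1), which follows it, had 3.8, 8.92 and 3.66 TPM at Juvenile 3d and 60.3, 43.6 and 55.1 TPM at Juvenile 4d. Both were higher in every Juvenile 4d library than in any of Juvenile 3d. In edgeR, bFtz-F1 was called (log2 fold change 3.11, SE 0.80, edgeR adjusted p = 0.0201), although dropping replicate 1 or 3 of Juvenile 3d or replicate 1 of Juvenile 4d raised the adjusted p to 0.0735, 0.103 and 0.0609. HR3 was not called (log2 fold change 2.46, SE 1.10, edgeR adjusted p = 0.166), and was called when replicate 3 of Juvenile 6d was dropped (edgeR adjusted p = 0.023) or when the 6 libraries were fitted alone (edgeR adjusted p = 0.025). The study itself reports expression of the molting pathway at Juvenile 4d from these libraries, so the pair is no independent check of the stage. In the study's list of this pathway, E78, EcR g12979.t1 and sad had log2 fold changes of −0.14, −0.31 and −0.27. The other transcripts of the list had positive values.

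Of the 10436 transcripts tested, 748 were called higher at Juvenile 4d (7.17%) and 560 lower (5.37%). The median log2 fold change of all transcripts tested was −0.01. The changes were often large: among the transcripts called higher the median log2 fold change was 1.34, with 514 above 1, 226 above 2 and 106 above 3. Among those called lower the median was −1.21, with 353 below −1, 72 below −2 and 11 below −3. For 744 of the 748 the 3 Juvenile 4d values in TPM lay above all 3 Juvenile 3d values, as they did for 31.8% of all transcripts tested. For 554 of the 560 they lay below, against 15.8% of all transcripts tested. The TPM scale itself was shifted against the edgeR scale, since the median difference of log2(TPM + 1) between the days was 0.14 over the same transcripts, so a small rise in TPM may be no rise in the counts. The counts of calls rested on certain libraries: the total of 1308 fell to 490 when replicate 3 of Juvenile 3d was dropped, to 534 for replicate 1 of Juvenile 4d and to 851 for replicate 2 of Juvenile 3d. It was 2265 when replicate 1 of Juvenile 6d was dropped, with falls then outnumbering rises (1079 higher and 1186 lower), and 3006 in a fit of the 6 libraries alone. The excess of rises also depended on the scaling, since 57.2% of the calls were rises here, 50.7% under upper quartile factors and 64.8% in limma on log2(TPM + 1).

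**Figure D1:**
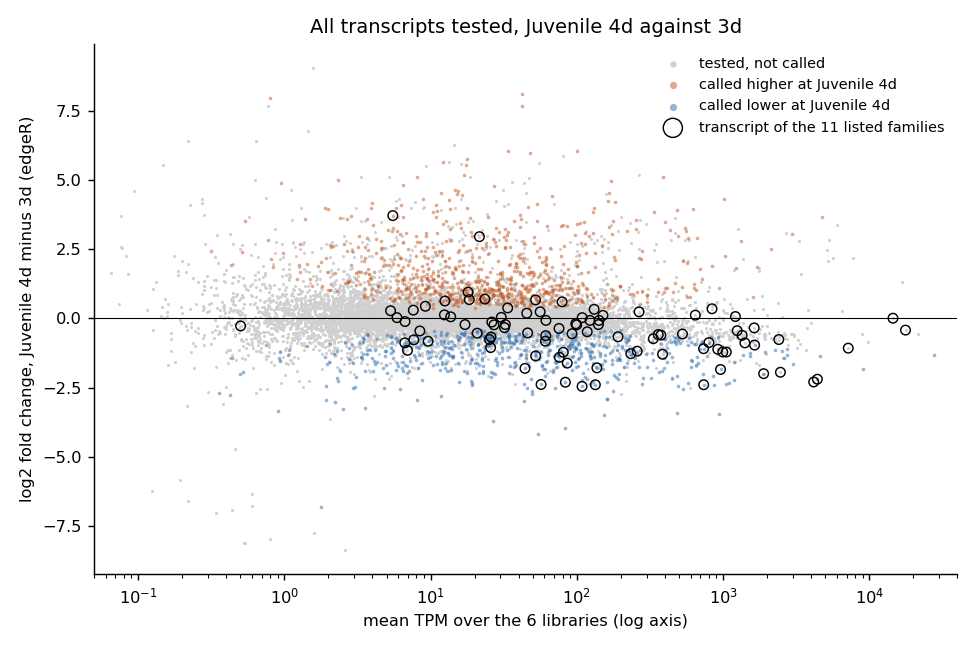
Log2 fold change between Juvenile 4d and Juvenile 3d (vertical axis, edgeR) against the mean TPM over the 6 libraries (horizontal axis, log scale) for the transcripts tested, without 11 whose mean was under 0.05 TPM. Orange points are the 748 called higher, blue points the 560 called lower, grey points those not called, and black rings mark transcripts of the 11 listed families, most of which lie below 0.

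Transcripts called lower were the more abundant group. Their median level over the 6 libraries was 39.6 TPM, against 23.5 TPM for those called higher and 16.0 TPM for all tested. In the top quartile of levels, 261 of 2609 transcripts were called lower and 217 higher, while in the bottom quartile 66 of 2609 were called lower and 94 higher. Coding length differed as well, with a median of 1449 bases for transcripts called higher, 1240.5 for those called lower and 1302 for all tested. The share called higher went from 5.36% in the quartile of the shortest coding sequences to 8.48% in that of the longest, and the share called lower from 5.74% to 4.45%.

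The transcripts called lower took up a large share of the RNA measured before the step. Their summed level was 194079, 174947 and 212868 TPM in the Juvenile 3d libraries and 63427, 88429 and 93999 TPM in those of Juvenile 4d, which is 17.5% to 21.3% and 6.34% to 9.40% of a library. The transcripts called higher went the other way, from 29636, 27669 and 18915 TPM to 115757, 88813 and 93756 TPM. Neither pair of ranges overlapped, as the choice of these transcripts by the same comparison requires. A few transcripts carried much of the change. Among those called lower, the 10 with the largest fall in mean TPM made up 47.6% of the summed fall, and among those called higher the 10 with the largest rise made up 36.6%. Of the listed families, only CAHS g3884.t1 was among the 20 called transcripts that fell most, and none among the 50 called that rose most. Among all transcripts, called or not, CAHS g3884.t1, g5971.t1, g675.t1 and g612.t1 ranked 4, 5, 11 and 17 by fall of mean TPM. SAHS g1669.t1 and g1671.t1 ranked 7 and 9. The fit of all libraries called only g3884.t1 of these.

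Over the later days the sums moved back towards those of Juvenile 2d and 3d, a course that the choice of transcripts by their difference at Juvenile 4d favours. The sum of those called higher was 13728 ± 85 TPM (SD, n = 3) at Juvenile 2d, 99442 ± 14344 at Juvenile 4d, 52652 ± 4112 at Juvenile 5d and 40005 ± 7076 at Juvenile 7d. At Juvenile 6d it differed widely between libraries, at 17718, 39053 and 48116 TPM. The daily mean was highest on Juvenile 4d for 653 of the 748 and lowest on Juvenile 2d for 646, against 2813 and 4958 of all 10436 tested. The sum of those called lower was 192160 ± 995 TPM at Juvenile 2d, close to the Juvenile 3d mean of 193965 ± 18961, then 81951 ± 16282 at Juvenile 4d, 124256 ± 7210 at Juvenile 5d and 192797 ± 18282 at Juvenile 6d. Their daily mean was lowest on Juvenile 4d for 385 of the 560 and lowest on Juvenile 5d for a further 92, against 1323 and 1461 of all tested.

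**Figure D2:**
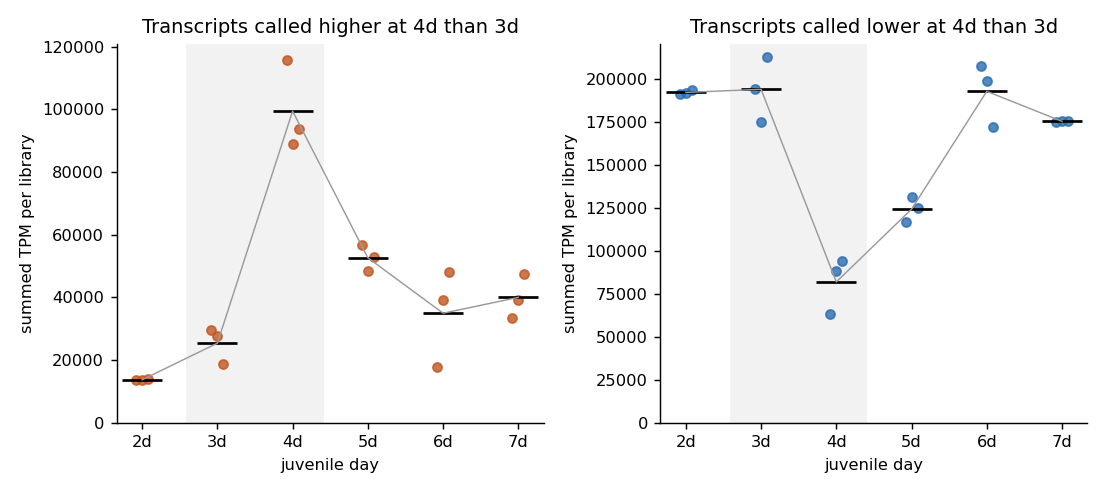
Summed TPM per library (vertical axis) of the 748 transcripts called higher (left, orange) and the 560 called lower (right, blue) at Juvenile 4d than at Juvenile 3d, by juvenile day (horizontal axis). Points are the 3 libraries of a day, black bars their means joined by a grey line, and the shaded band marks the days compared, with means of 25407 and 99442 TPM on the left and 193965 and 81951 TPM on the right.

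The days on either side were compared with each other in the same fit. Their libraries gave none of the Juvenile 3d and 4d values, but share the estimate of the spread with them, so the calls of both comparisons are not independent. Between Juvenile 5d and Juvenile 2d, edgeR called 18.6% of all transcripts tested higher and 14.7% lower. Of the 748 transcripts that had risen at Juvenile 4d, 492 were also higher at Juvenile 5d than at Juvenile 2d (65.8%) and 4 were lower. Of the 560 that had fallen, 242 were lower at Juvenile 5d than at Juvenile 2d (43.2%) and 38 were higher (6.79%).

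Gene numbers of called transcripts followed each other in a minority of cases, but at a larger share than over all tested genes. The sources used here do not say where the numbered genes lie. Among the 429 genes with a transcript called lower whose next number was also tested, that next gene was called lower in 60 (14.0%), against 5.50% over all 7987 tested genes with a tested next number. For transcripts called higher it was 63 of 600 (10.5%), against 7.45%. Of the transcripts called, 7.62% of those higher and 7.5% of those lower had an estimated count that was not whole in at least 1 of the 6 libraries, the sign that reads were divided between similar sequences, compared with 11.1% of all tested. Only 1 transcript called higher had no count in any Juvenile 3d library. Set against the limit of 3 counts per library that a count of 0 allows, it was at least 12.6-fold higher at Juvenile 4d, with counting error alone considered. Its estimated count in Juvenile 4d replicate 1 was 35.45, which is not whole, so reads were divided with a similar sequence. The limit does not cover that division.

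Of transcripts without a name, those described are the pair in each direction with the smallest p-values among those of at least 50 TPM whose days did not overlap. The transcript g2910.t1 had 183, 272 and 160.3 TPM at Juvenile 3d and 1093, 764 and 901 TPM at Juvenile 4d (log2 fold change 1.99, SE 0.22, edgeR adjusted p = 0.00025). For g6905.t1 the values were 40.03, 36.2 and 19.7 TPM at Juvenile 3d and 184, 168 and 170.3 TPM at Juvenile 4d (log2 fold change 2.28, SE 0.26, edgeR adjusted p = 0.00025). Both were several times higher in each Juvenile 4d library, but their later courses parted: g2910.t1 was still at 1042 ± 148 TPM (SD, n = 3) at Juvenile 5d, whereas g6905.t1 was back at 49.8 ± 5.68 TPM. Of those that fell, g5135.t1 had 73, 66.7 and 75.2 TPM at Juvenile 3d and 31.4, 32 and 33.5 TPM at Juvenile 4d (log2 fold change −1.33, SE 0.15, edgeR adjusted p = 0.000302), with libraries of a day within a few TPM of each other. The transcript g13381.t1 had 288, 234 and 317 TPM at Juvenile 3d and 17.5, 51.5 and 54.8 TPM at Juvenile 4d (log2 fold change −2.91, SE 0.37, edgeR adjusted p = 0.000454), and shares its counts in all 18 libraries with 1 other identifier, so the pair cannot be told apart in these files. At Juvenile 6d they were at 63.2 ± 8.98 and 238 ± 32.1 TPM, near or above their Juvenile 2d means of 50.2 ± 3.44 and 199 ± 35.9.

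In the 11 listed families, 91 of the 101 transcripts passed the filter on low counts. Of these, 3 were called higher (3.30%, against 7.17% of all transcripts tested) and 17 lower (18.7%, against 5.37%), and 71 were not called. Their median log2 fold change was −0.52, against −0.01 for all tested. The calls fell on GST (9 lower), SOD (5 lower and 1 higher), catalase (1 of each), HOX (1 higher), CAHS and SAHS (1 lower each). The number depended on the libraries used, and was 6 when replicate 3 of Juvenile 3d or replicate 1 of Juvenile 4d was dropped, 13 for replicate 1 or 2 of Juvenile 3d, and 37 for replicate 1 of Juvenile 6d. The fit of the 6 libraries alone called 6 higher and 35 lower among 90 tested, with 16.7% and 13.8% of all transcripts called in that fit, and a fit of Juvenile 2d to 5d called 9 and 40, with 17.2% and 15.9% of all transcripts. In the 18 fits with a library dropped, 5 of the 20 members were called every time: catalase g4317.t1, the GSTs g10963.t1 and g11192.t1, SOD g455.t1 and CAHS g3884.t1.

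**Figure D3:**
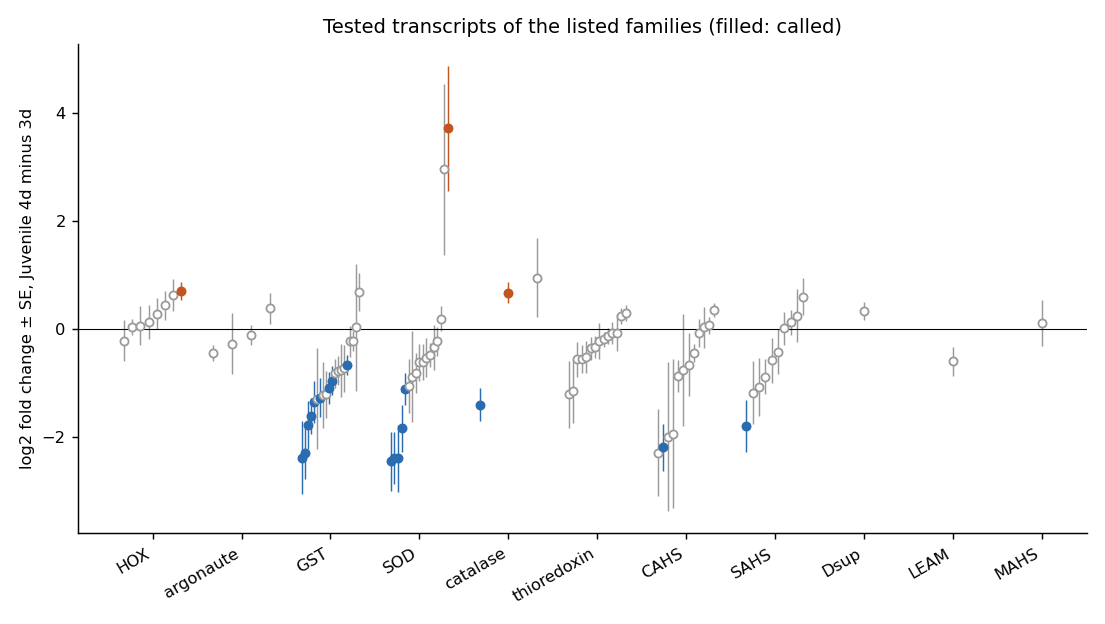
Log2 fold change between Juvenile 4d and Juvenile 3d with its standard error (vertical axis, edgeR) for the 91 tested transcripts of the 11 listed families (horizontal axis), ordered by value within a family. Filled points were called, 3 higher in orange and 17 lower in blue, and open grey points were not called; GST and SOD hold 14 of the 17 called lower.

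The GST family, enzymes that join glutathione to reactive and foreign compounds, had the most calls. Of 21 transcripts 20 were tested, 9 were called lower, none was called higher, and the median log2 fold change of the family was −1.03. DESeq2, which gave no adjusted p for g4663.t1, called 10 lower, with 686 of 10436 transcripts called lower. The fit of the 6 libraries called 14 lower, with 13.8% of all transcripts. In 15 of the 20 the Juvenile 4d libraries were all below those of Juvenile 3d, against 15.8% of all transcripts. The family summed to 6232, 6551 and 7229 TPM in the Juvenile 3d libraries and to 2748, 3879 and 3953 TPM in those of Juvenile 4d, without overlap, a ratio of the means of 0.529.

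The smallest p-value in the family was that of g11192.t1, with 118, 104 and 186 TPM at Juvenile 3d and 22, 29.2 and 42.3 TPM at Juvenile 4d. Every library of Juvenile 4d was below every library of Juvenile 3d, and the fitted level was 4.92-fold lower (log2 fold change −2.30, SE 0.47, edgeR adjusted p = 0.00582). The transcript g10963.t1 had 129.5, 116 and 132 TPM at Juvenile 3d and 29.3, 36.9 and 72.3 TPM at Juvenile 4d (log2 fold change −1.61, SE 0.34, edgeR adjusted p = 0.0073), and its neighbour in number, g10962.t1, had 304, 292 and 360.5 TPM at Juvenile 3d and 116, 178 and 152 TPM at Juvenile 4d (log2 fold change −1.27, SE 0.36, edgeR adjusted p = 0.0313). Both fell without overlap between the days, with Juvenile 4d replicate 1 the lowest library. The values of g7678.t1 were 172, 218 and 231 TPM at Juvenile 3d and 51.9, 73.4 and 76.2 TPM at Juvenile 4d (log2 fold change −1.78, SE 0.44, edgeR adjusted p = 0.0161). A smaller fall was seen for g12745.t1, with 32.7, 27.2 and 30.6 TPM at Juvenile 3d and 19.9, 23.7 and 21.1 TPM at Juvenile 4d (log2 fold change −0.67, SE 0.18, edgeR adjusted p = 0.0216), which limma on log2(TPM + 1) did not call (adjusted p = 0.125). The abundant g10977.t1 had 921, 938 and 1026 TPM at Juvenile 3d and 425, 568 and 532 TPM at Juvenile 4d, with every Juvenile 4d library well below (log2 fold change −1.09, SE 0.30, edgeR adjusted p = 0.0272).

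The largest fold change in the family was that of g6233.t1, which had 77.9, 82.5 and 121 TPM at Juvenile 3d and 11.9, 14.4 and 34.3 TPM at Juvenile 4d (log2 fold change −2.38, SE 0.68, edgeR adjusted p = 0.0331). It did not overlap between the days, although replicate 3 was well above the other Juvenile 4d libraries. The most abundant member was g4017.t1, with 2064, 1911 and 2280.2 TPM at Juvenile 3d and 875, 1329 and 1394 TPM at Juvenile 4d (log2 fold change −0.96, SE 0.27, edgeR adjusted p = 0.0318). The next in level, g2973.t1, had 1175, 1438 and 1399.7 TPM at Juvenile 3d and 558, 654 and 746 TPM at Juvenile 4d, as clear a separation of the days, but was not called in the fit of all libraries (log2 fold change −1.21, SE 0.44, edgeR adjusted p = 0.0901) and was called in that of the 6 libraries (edgeR adjusted p = 0.00523). At Juvenile 6d it had 616 ± 432 TPM (SD, n = 3). The member with the largest rise, g9609.t1, had 14.1, 11.8 and 13.5 TPM at Juvenile 3d and 20.9, 32.2 and 17.9 TPM at Juvenile 4d and was not called (log2 fold change 0.68, SE 0.35, edgeR adjusted p = 0.236). Of the called members, g10963.t1 and g11192.t1 kept the call whichever library was dropped. The family count of 9 was 2 when replicate 3 of Juvenile 3d or replicate 1 of Juvenile 4d was dropped, 4 for replicate 1 or 2 of Juvenile 3d, and 5 for replicate 3 of Juvenile 4d.

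Over the series the GST sum was highest at Juvenile 2d (10469 ± 465 TPM, SD, n = 3) and lowest at Juvenile 4d (3527 ± 675.4), and stood at 5453 ± 354 at Juvenile 5d. The course of g11192.t1 went from 380.4 ± 30.8 TPM at Juvenile 2d through 136 ± 43.9 and 31.2 ± 10.3 to 125 ± 17.3 at Juvenile 5d. That of g4017.t1 went from 3865 ± 221 through 2085 ± 186 and 1199 ± 282 to 1459 ± 162. Between Juvenile 5d and Juvenile 2d, 8 of the 20 GSTs were called lower and 1 higher, against 14.7% and 18.6% of all transcripts tested.

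The superoxide dismutases convert superoxide to hydrogen peroxide. All 17 transcripts were tested, with 5 called lower and 1 higher, and the median log2 fold change was −0.62. The sum of the family was 7537, 7626 and 8593 TPM at Juvenile 3d and 3751, 5017 and 4563 TPM at Juvenile 4d, a ratio of 0.561. A group of 3 called members had successive gene numbers and was above 1000 TPM in the Juvenile 3d libraries. The first of them, g455.t1, had 1097, 1064 and 1479 TPM at Juvenile 3d and 178, 277 and 325 TPM at Juvenile 4d, which is 5.25-fold lower in the fit (log2 fold change −2.39, SE 0.48, edgeR adjusted p = 0.00513). The next, g456.t1, had 1354, 1341 and 1697 TPM at Juvenile 3d and 338, 469 and 563 TPM at Juvenile 4d (log2 fold change −1.84, SE 0.44, edgeR adjusted p = 0.014), and g457.t1 had 1189, 1115 and 1318 TPM at Juvenile 3d and 551, 723 and 620.1 TPM at Juvenile 4d (log2 fold change −1.11, SE 0.30, edgeR adjusted p = 0.0262). In all 3 the Juvenile 4d libraries lay below those of Juvenile 3d, and the fall of g457.t1 was the smallest. Their counts were whole in all libraries, so no reads were divided between them.

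Other, less abundant members fell as steeply. The transcript g11595.t1 had 174, 162 and 205 TPM at Juvenile 3d and 18.8, 36.4 and 55.5 TPM at Juvenile 4d (log2 fold change −2.45, SE 0.55, edgeR adjusted p = 0.0095), the largest fall in the family, and g6658.t1 had 217, 175 and 269 TPM at Juvenile 3d and 37.7, 41.2 and 63.2 TPM at Juvenile 4d (log2 fold change −2.39, SE 0.62, edgeR adjusted p = 0.0213). Neither overlapped between the days. They returned differently, since g11595.t1 was at 549 ± 175 TPM at Juvenile 5d, above its Juvenile 3d mean of 180.4 ± 22, and g6658.t1 at 165 ± 67.8 TPM, below its 220.3 ± 47.4. The most abundant member of the family, g8490.t1, had 1665, 1804 and 1722 TPM at Juvenile 3d and 1334, 1798 and 1464 TPM at Juvenile 4d, overlapping ranges, and was not called (log2 fold change −0.34, SE 0.42, edgeR adjusted p = 0.656). The next, g11594.t1, had 1507, 1609 and 1542 TPM at Juvenile 3d and 968, 1315 and 1154 TPM at Juvenile 4d, below in every Juvenile 4d library, and was not called either (log2 fold change −0.61, SE 0.33, edgeR adjusted p = 0.257). The fits of the 6 libraries and of Juvenile 2d to 5d called g11594.t1 lower (edgeR adjusted p = 0.0411 and 0.0286).

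The only SOD called higher was g11593.t1, with 2.08, 0 and 0 TPM at Juvenile 3d and 13.6, 8.28 and 9.12 TPM at Juvenile 4d (log2 fold change 3.71, SE 1.15, edgeR adjusted p = 0.0474). It rested on few reads, 6.26 estimated counts in the Juvenile 3d libraries together, and the reads were divided with a second transcript of the gene, g11593.t2, which had 5.81, 9.89 and 8.94 TPM at Juvenile 3d and 4.56, 6.46 and 4.34 TPM at Juvenile 4d. With the counts of the gene summed, the log2 fold change was 0.54 (SE 0.45, edgeR adjusted p = 0.468), so the rise of the gene as a whole was not called. The call for g11593.t1 was made in 8 of the 18 fits with a library dropped. The falling members were steadier: the 5 were called in every fit that kept the 6 libraries of the days compared. The number called lower was 2 when replicate 3 of Juvenile 3d was dropped and 1 for replicate 1 of Juvenile 4d.

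**Figure D4:**
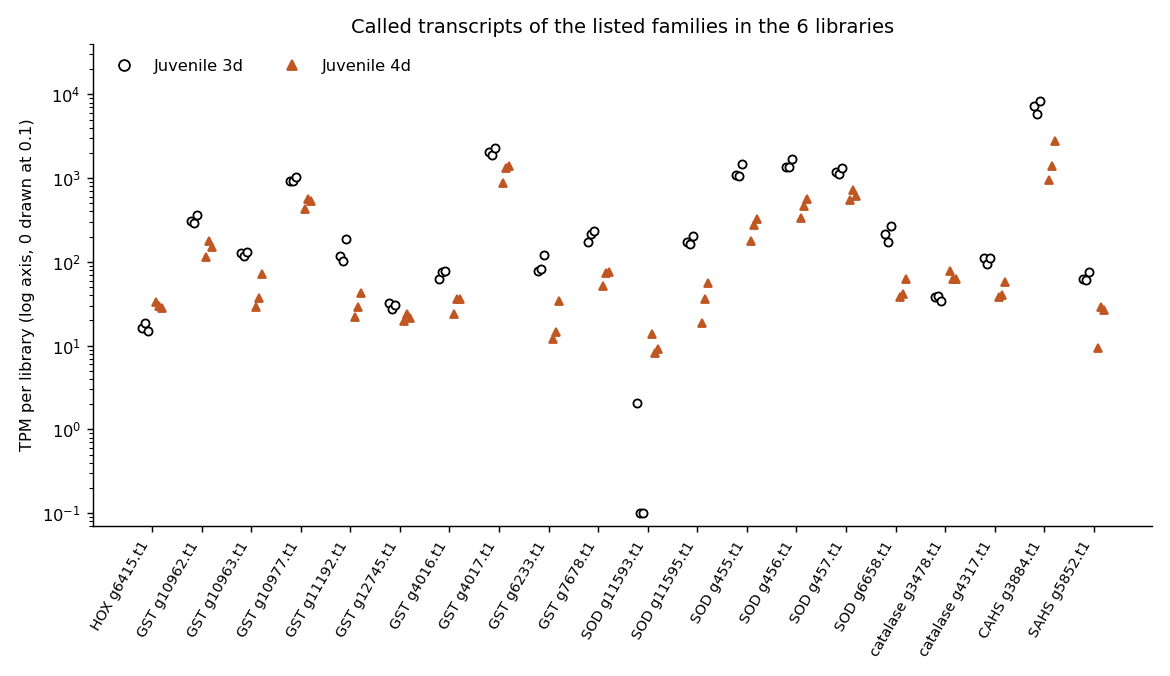
TPM in each of the 6 libraries (vertical axis, log scale, values of 0 drawn at 0.1) for the 20 transcripts of the listed families called between the days. Open circles are Juvenile 3d and orange triangles Juvenile 4d; the 17 called lower include the far more abundant CAHS g3884.t1, and in each of the 20 the circles and triangles lie apart.

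The catalases, which break down the hydrogen peroxide that SOD makes, split in direction. The transcript g3478.t1 had 37.6, 39.4 and 34.5 TPM at Juvenile 3d and 77.7, 61.9 and 62.2 TPM at Juvenile 4d, higher in every Juvenile 4d library (log2 fold change 0.67, SE 0.19, edgeR adjusted p = 0.0283). The transcript g4317.t1 had 111, 95.7 and 112.0 TPM at Juvenile 3d and 38.2, 40.6 and 57.5 TPM at Juvenile 4d, lower in every one (log2 fold change −1.40, SE 0.30, edgeR adjusted p = 0.00725). The third, g5941.t1, had 12.5, 12.7 and 8.87 TPM at Juvenile 3d and 28.7, 24 and 21.5 TPM at Juvenile 4d, also without overlap, but was not called (log2 fold change 0.95, SE 0.73, edgeR adjusted p = 0.445); the fit of the 6 libraries called it (edgeR adjusted p = 0.00519). The call for g3478.t1 was lost when any library of Juvenile 3d or replicate 1 or 2 of Juvenile 4d was dropped, with edgeR adjusted p-values of up to 0.122, and with upper quartile factors. That for g4317.t1 was kept in all 18. In proportion, the sum of the 3 moved less than any of them, from 162, 148 and 155 TPM to 145, 126 and 141 TPM, a ratio of the means of 0.887.

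The later courses of the catalases differed. At Juvenile 5d g3478.t1 was at 21.3 ± 4.76 TPM, below its Juvenile 2d mean of 27.6 ± 1.33. At the same day g4317.t1 was at 58.7 ± 13.7, also below its Juvenile 2d mean of 111.8 ± 4.52 (log2 fold change −1.19, edgeR adjusted p = 0.0073). The transcript g5941.t1 was close to absent at Juvenile 2d, with 0.162 ± 0.0732 TPM, and reached 57.6 ± 13.2 TPM at Juvenile 7d.

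Thioredoxins are typically small proteins that reduce disulfide bonds and pass electrons to peroxide-removing enzymes. The study's list is used as given, and its member g13167.t1 has a coding length of 2373 bases. A figure legend of the study names thioredoxin reductase where its text names thioredoxin. All 14 were tested and none was called, with 1 at an unadjusted p under 0.05 in edgeR and 0 called by DESeq2 or by limma on log2(TPM + 1). DESeq2 gave no adjusted p for g11519.t1, so its count covers the other members. The fit of the 6 libraries called 2 of the 14 lower, with 13.8% of all transcripts called lower in that fit. When replicate 1 of Juvenile 6d was dropped, 3 were called lower, with 1186 of 10584 transcripts called lower. The most abundant, g11519.t1, had 1312, 1489 and 1448 TPM at Juvenile 3d and 551, 793 and 715 TPM at Juvenile 4d, below in every Juvenile 4d library and the largest fall of the family (log2 fold change −1.21, SE 0.62, edgeR adjusted p = 0.23; 0.00449 in the fit of the 6 libraries). The next, g11522.t1, had 541, 676 and 582 TPM at Juvenile 3d and 376, 571 and 420.4 TPM at Juvenile 4d with overlapping ranges (log2 fold change −0.56, SE 0.32, edgeR adjusted p = 0.285). It was called in the fit of Juvenile 2d to 5d (edgeR adjusted p = 0.0346). The largest rise was that of g13167.t1, with 6.14, 7.39 and 5.6 TPM at Juvenile 3d and 9.43, 7.92 and 9.27 TPM at Juvenile 4d (log2 fold change 0.30, SE 0.15, edgeR adjusted p = 0.212). The sum over the family fell in TPM from 2608, 2972 and 2806 to 1666, 2135 and 1887, a ratio of 0.678, which was 0.874 in CPM, counts scaled to the library total without the length.

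The CAHS proteins are cytosolic and form filaments and gels as water is lost. Of 15 transcripts, 12 were tested and 1 was called lower, with a median log2 fold change of −0.71 and 5 at an unadjusted p under 0.05. DESeq2, which gave no adjusted p for g612.t1, called 4 lower and 1 higher, with 686 and 1047 of 10436 transcripts. As many members were called by edgeR when replicate 1 of Juvenile 6d was dropped, with 1186 and 1079 of 10584 transcripts. The fit of the 6 libraries called 5 lower, with 13.8% of all transcripts. When replicate 3 of Juvenile 6d or of Juvenile 7d was dropped, 2 were called lower, with 739 of 10574 and 768 of 10551 transcripts. The sum of the family was nevertheless far lower at Juvenile 4d, at 9383, 11803 and 13619.7 TPM, than at Juvenile 3d, at 25983, 27284 and 31201 TPM. The ratio of the means was 0.412, with no overlap. It was carried by a few very abundant members. The called one, g3884.t1, had 7232, 5865 and 8239 TPM at Juvenile 3d and 943, 1406 and 2783 TPM at Juvenile 4d, 4.57-fold lower in the fit (log2 fold change −2.19, SE 0.44, edgeR adjusted p = 0.00561). Its lowest library at Juvenile 3d was far above its highest at Juvenile 4d, and the fall of its mean, 5401 TPM, was the third largest among the transcripts called lower. The second most abundant, g5971.t1, had 5930.4, 6626 and 7739.5 TPM at Juvenile 3d and 1128, 1551 and 1996 TPM at Juvenile 4d, at least as wide a gap and a log2 fold change of −2.29, the largest fall in the family. With an SE of 0.80 it was not called (edgeR adjusted p = 0.0747), although it was called in the fit of the 6 libraries (0.00282), with DESeq2, and when replicate 1 or 3 of Juvenile 6d was dropped. At Juvenile 6d its level was 3722 ± 4610.5 TPM, a far wider spread than at Juvenile 3d (6765 ± 913) or Juvenile 4d (1558 ± 434).

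Not all CAHS transcripts fell. The member with the largest rise, g674.t1, had 724, 662 and 668 TPM at Juvenile 3d and 1092, 964 and 927 TPM at Juvenile 4d, higher in each Juvenile 4d library (log2 fold change 0.35, SE 0.13, edgeR adjusted p = 0.11), and it was called by DESeq2 but not in the fit of the 6 libraries (edgeR adjusted p = 0.0654). In the daily means g674.t1 was lowest at Juvenile 2d, at 422 ± 20.5 TPM, and was higher at Juvenile 5d than at Juvenile 2d (log2 fold change 1.19, edgeR adjusted p = 6.51e-05). By contrast g3884.t1 was at 12457 ± 313 TPM at Juvenile 2d, 1711 ± 957 at Juvenile 4d, 5686 ± 1696 at Juvenile 5d and 12695 ± 3046 at Juvenile 6d. Untested were 3 members, all below 2 TPM in each of the 6 libraries.

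The SAHS proteins are secreted counterparts of CAHS. Of 13 transcripts, 10 were tested and 1 was called lower. The fit of the 6 libraries called 5 lower and 1 higher, with 13.8% and 16.7% of all transcripts. With replicates 1 and 3 of Juvenile 6d dropped in turn, 3 and 2 were called lower, with 1186 of 10584 and 739 of 10574 transcripts. The called member was one of the rarer ones, g5852.t1, with 63, 61.6 and 76.1 TPM at Juvenile 3d and 9.45, 28.6 and 26.4 TPM at Juvenile 4d (log2 fold change −1.80, SE 0.48, edgeR adjusted p = 0.024). The days did not overlap, and the call was lost when replicate 3 of Juvenile 3d or replicate 1 of Juvenile 4d was dropped, with an edgeR adjusted p of up to 0.114. The largest fall of mean TPM in the family, 4381 TPM, was that of g1669.t1, picked out after its values were seen. Its estimated counts were 15454, 10761 and 15088 at Juvenile 3d and 4953, 6674 and 7210 at Juvenile 4d. It was not called in the fit of all libraries, but the fits of the 6 libraries and of Juvenile 2d to 5d called it lower. The most abundant transcripts, g1671.t1 and g1676.t1, were not called. For g1671.t1 the values were 20182, 19169 and 18219 TPM at Juvenile 3d and 15212, 17220.4 and 15946 TPM at Juvenile 4d (log2 fold change −0.42, SE 0.42, edgeR adjusted p = 0.571). For g1676.t1 they were 14822, 13708 and 12332 TPM at Juvenile 3d and 13178, 17272 and 15668 TPM at Juvenile 4d, with a log2 fold change of 0.01 that was −0.05 with upper quartile factors (SE 0.30, edgeR adjusted p = 0.99). The largest rise was that of g1677.t1, with 65.8, 56.8 and 52.8 TPM at Juvenile 3d and 113, 106 and 81.5 TPM at Juvenile 4d (log2 fold change 0.60, SE 0.34, edgeR adjusted p = 0.281). It was called in the fit of the 6 libraries (edgeR adjusted p = 0.0404). The family sum went from 49113, 44560.3 and 43164 TPM to 34596, 43118 and 39806 TPM, a ratio of 0.859, without overlap by a narrow margin. The 3 untested members had at most 8.62 TPM in any of the 6 libraries.

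CAHS and SAHS together made up 7.51%, 7.18% and 7.44% of the TPM of the Juvenile 3d libraries and 4.4%, 5.49% and 5.34% of those of Juvenile 4d. The ratio of the means was 0.688 in TPM and 0.599 in CPM.

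The single-copy protectants were not called. Dsup (g4591.t1), which binds nucleosomes and shields DNA, had 110.1, 120.2 and 96.3 TPM at Juvenile 3d and 163, 148 and 151 TPM at Juvenile 4d, higher in each Juvenile 4d library (log2 fold change 0.33, SE 0.16, edgeR adjusted p = 0.192). DESeq2 called it, as did the edgeR fit of Juvenile 2d to 5d, and that of the 6 libraries did not (edgeR adjusted p = 0.0526). LEAM (g2978.t1), a mitochondrial late embryogenesis abundant protein, had 419.7, 433 and 441 TPM at Juvenile 3d and 288, 326 and 347 TPM at Juvenile 4d, lower in each (log2 fold change −0.60, SE 0.27, edgeR adjusted p = 0.174), and was called in the fit of the 6 libraries (edgeR adjusted p = 0.0231) and when replicate 1 of Juvenile 6d was dropped (0.0127). MAHS (g6834.t1), the mitochondrial heat-soluble protein, had 166, 108 and 132 TPM at Juvenile 3d and 172, 148 and 179.7 TPM at Juvenile 4d with overlapping ranges (log2 fold change 0.11, SE 0.43, edgeR adjusted p = 0.9; log2 fold change −0.04 with replicate 2 of Juvenile 3d dropped). Dsup had its highest daily mean on Juvenile 4d, 154 ± 8.31 TPM, after 52.8 ± 5.48 at Juvenile 2d.

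The HOX list holds homeobox transcription factors that give body regions their identity along the axis. All 8 were tested and 1 was called higher, Hox9_abdb-2 (g6415.t1), one of a pair of Abdominal-B type genes, which in arthropods mark the hind end. It had 16.1, 18.6 and 14.8 TPM at Juvenile 3d and 33.3, 29.8 and 28.5 TPM at Juvenile 4d, 1.62-fold higher in the fit (log2 fold change 0.70, SE 0.16, edgeR adjusted p = 0.0105). The days did not overlap, and the call was lost in 1 of the 18 fits, with replicate 3 of Juvenile 3d dropped (edgeR adjusted p = 0.0658). Its partner Hox10_abdb-1 (g6414.t1), whose gene number is the one before, had 29.6, 24.6 and 30.01 TPM at Juvenile 3d and 34.9, 30.4 and 33.1 TPM at Juvenile 4d, without overlap in TPM, and a log2 fold change of 0.04 that was −0.02 with upper quartile factors and −0.07 with replicate 2 of Juvenile 3d dropped (SE 0.15, edgeR adjusted p = 0.909).

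The remaining HOX genes were not called in the fit of all libraries. Hox1_labial (g6100.t1) had 9.46, 10.5 and 7.39 TPM at Juvenile 3d and 19.8, 12 and 16.1 TPM at Juvenile 4d, without overlap (log2 fold change 0.63, SE 0.29, edgeR adjusted p = 0.181), and was called in the fit of the 6 libraries (edgeR adjusted p = 0.0319) and when replicate 1 of Juvenile 6d was dropped (0.0372). Hox3_zen (g6131.t1) had 5.48, 4.36 and 3.67 TPM at Juvenile 3d and 6.12, 6.33 and 6.01 TPM at Juvenile 4d (log2 fold change 0.28, SE 0.29, edgeR adjusted p = 0.581). Hox4_disformed (g2153.t1) had 15, 10.8 and 12 TPM at Juvenile 3d and 16.7, 13.4 and 14.6 TPM at Juvenile 4d, and the ranges overlapped (log2 fold change 0.06, SE 0.36, edgeR adjusted p = 0.936; log2 fold change −0.06 with replicate 2 of Juvenile 3d dropped). Hox7_ftz (g6724.t1) had 10.6, 13.4 and 9.59 TPM at Juvenile 3d and 10.6, 14.3 and 16 TPM at Juvenile 4d, also with overlap (log2 fold change 0.13, SE 0.32, edgeR adjusted p = 0.846; log2 fold change −0.01 with replicate 3 of Juvenile 4d dropped). Of the homeobox genes outside the HOX series, caudal (g10624.t1) had 6.57, 5.96 and 9.24 TPM at Juvenile 3d and 11, 8.75 and 13.8 TPM at Juvenile 4d (log2 fold change 0.44, SE 0.27, edgeR adjusted p = 0.33). The segment polarity gene engrailed (g10006.t1) had 20.9, 16.3 and 15.3 TPM at Juvenile 3d and 20.3, 15.6 and 14.9 TPM at Juvenile 4d, the only negative log2 fold change of the list (log2 fold change −0.22, SE 0.38, edgeR adjusted p = 0.758). Hox9_abdb-2 had a mean of 30.5 ± 2.46 TPM at Juvenile 4d but 17.6 ± 2.69 at Juvenile 5d, against 14.6 ± 1.31 at Juvenile 2d. None of the 8 was called between Juvenile 5d and Juvenile 2d by edgeR (lowest adjusted p = 0.125, for Hox7_ftz).

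**Figure D5:**
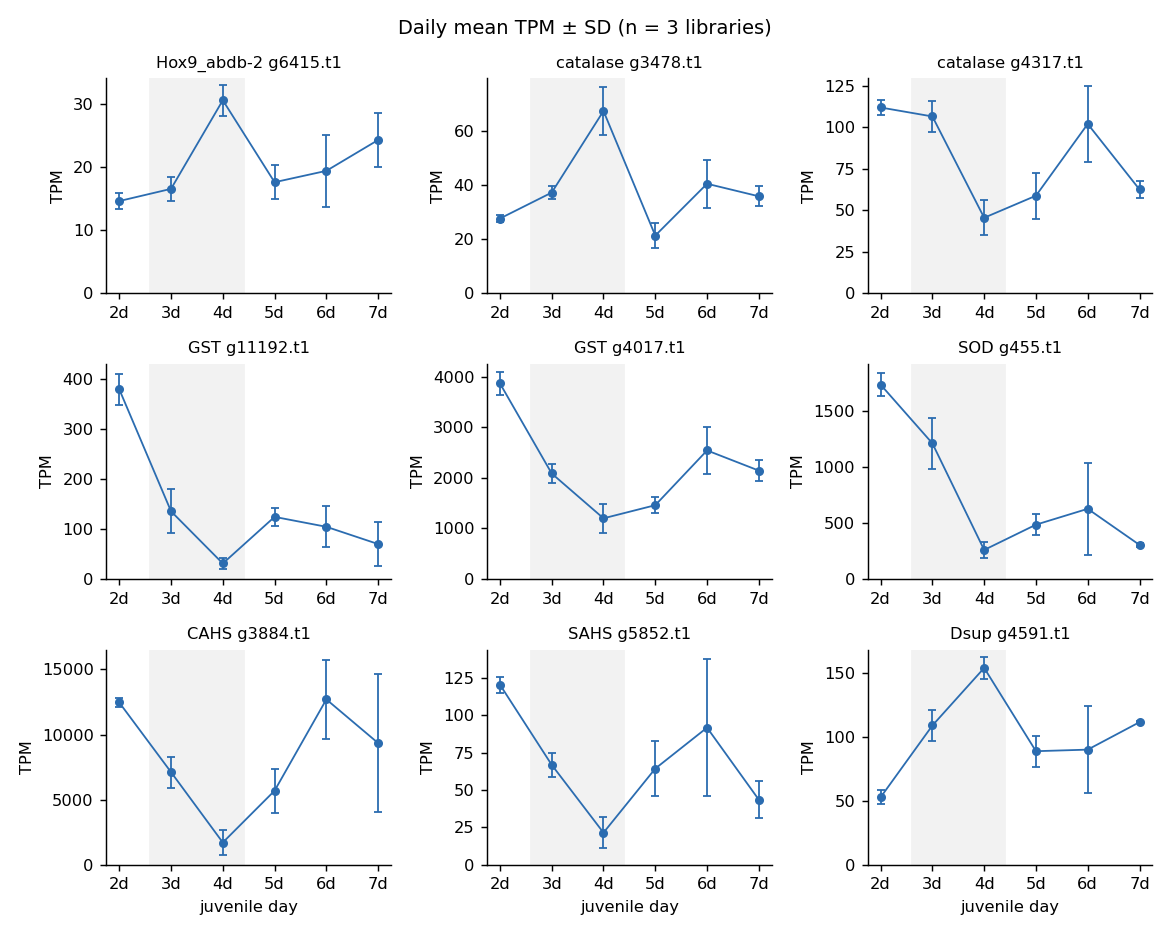
Daily mean TPM (vertical axes, each from 0) with SD over 3 libraries for 9 transcripts of the listed families, by juvenile day (horizontal axis), with the days compared shaded. Hox9_abdb-2, catalase g3478.t1 and Dsup have their highest mean at Juvenile 4d (30.5, 67.3 and 154 TPM), and the other 6 have their lowest mean there.

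Argonautes bind small RNAs and use them to silence transcripts. Of 7 transcripts 4 were tested, and none was called, with 1 at an unadjusted p under 0.05 in edgeR and 0 called by DESeq2 or by limma on log2(TPM + 1). The argonaute-1 transcript g11139.t1 was the most abundant, with 32.1, 25.4 and 24.5 TPM at Juvenile 3d and 43.1, 40.7 and 36.3 TPM at Juvenile 4d, higher in each Juvenile 4d library (log2 fold change 0.38, SE 0.28, edgeR adjusted p = 0.427). The other argonaute-1 transcript, g3665.t1, had 6.42, 7.29 and 5.84 TPM at Juvenile 3d and 8.35, 6.19 and 6.06 TPM at Juvenile 4d, with overlap and a log2 fold change that was 0.06 in limma on log2(TPM + 1) (log2 fold change −0.11, SE 0.18, edgeR adjusted p = 0.751). The argonaute-2 transcript g4269.t1 had 10.5, 8.93 and 8.22 TPM at Juvenile 3d and 9.16, 6.18 and 7.67 TPM at Juvenile 4d (log2 fold change −0.45, SE 0.15, edgeR adjusted p = 0.0707), and was called lower when replicate 1 of Juvenile 6d was dropped (edgeR adjusted p = 0.0148) and in the fit of Juvenile 2d to 5d (edgeR adjusted p = 0.0238), which also called g11139.t1 higher (edgeR adjusted p = 0.0449). The Piwi-like Ago3 (g10304.t1), which in insects works with germline small RNAs, stayed below 1 TPM, with 0.594, 0.290 and 0.669 TPM at Juvenile 3d and 0.386, 0.538 and 0.539 TPM at Juvenile 4d (log2 fold change −0.27, SE 0.57, edgeR adjusted p = 0.814). The 3 untested transcripts were at or near 0: g35.t1 had 0, 0.298 and 0 TPM at Juvenile 3d and 0, 0 and 0 TPM at Juvenile 4d, g4855.t1 had 0.396, 0.679 and 0.174 TPM at Juvenile 3d and 1.14, 0 and 0.422 TPM at Juvenile 4d, and g5071.t1 had 0.122, 0 and 0 TPM at Juvenile 3d and 0, 0 and 0 TPM at Juvenile 4d. A value of 0 in a library allows up to 3 counts. Between Juvenile 5d and Juvenile 2d, 3 of the 4 were called higher, against 18.6% of all transcripts tested, with g11139.t1 rising from 13.3 ± 2.46 to 50.8 ± 3.32 TPM (log2 fold change 1.67, edgeR adjusted p = 0.000987).

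In the days on either side, 12 of the 17 listed members that fell at Juvenile 4d were also lower at Juvenile 5d than at Juvenile 2d, and none was higher, against 14.7% and 18.6% of all transcripts tested and 43.2% of the 560 called lower that were lower. Of the 3 that rose, 1 was higher (SOD g11593.t1) and 1 lower (catalase g3478.t1, log2 fold change −0.65, edgeR adjusted p = 0.0164), while Hox9_abdb-2 was not called. The daily mean of the 17 was lowest on Juvenile 4d for 14, against 385 of the 560 called lower and 1323 of all 10436 tested. It was highest on Juvenile 2d for 13, against 179 of the 560 and 1427 of all tested. In all 17 the mean rose again from Juvenile 4d to Juvenile 5d. The choice of the 17 by their low level at Juvenile 4d favours such a course. As a group they summed to 15321, 13643 and 17842 TPM at Juvenile 3d and 3689, 5310 and 6855 TPM at Juvenile 4d, and to means of 26080 TPM at Juvenile 2d, 11661 at Juvenile 5d and 20143 at Juvenile 6d.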

How the data were processed

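Full-length cDNA of whole R. varieornatus juveniles was amplified by the SMARTer method and sequenced as single-end reads without molecular identifiers. The authors demultiplexed the reads with bcl2fastq v. 2 and quantified them on predicted coding sequences with kallisto v. 0.42.4, while the submitters' processing notes also list 0.44.0. They deposited for each library the estimated counts, without normalization, and the TPM values, for which kallisto scaled the counts by effective length and library total with its bias correction. Reads that fitted several transcripts were divided between them, and a shift in the amplified RNA of a few abundant transcripts moves the TPM of all others.

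For the tests, the rounded counts of all 18 libraries went into edgeR (4.0.16, R 4.3.3) with day as the model, TMM factors and the quasi-likelihood F test, after filterByExpr at a minimum count of 10. The SE was computed from F as |log2 fold change|/√F. Tests were two-sided, with p-values of the whole table adjusted by Benjamini-Hochberg. The biological coefficient of variation was 33.5%. The procedure was also run on simulated counts with the same spread for all transcripts and days, which does not cover days that differ in spread. DESeq2 1.42.0 and limma 3.58.1 (trend, log2(TPM + 1) and log2(TPM + 0.1)), other factors, filters and sets of libraries, counts summed by gene and each library left out in turn were alternatives. Sums and levels were computed in Python with pandas 2.3.3 and drawn with matplotlib 3.10.9.

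Groups came from the sample labels, which list Juvenile 2d to 7d, whereas the methods mention collection on days 3–7. The families and their names are those that the study pairs with transcript identifiers. Members, families and tests were chosen with earlier results of these data known. Named were all transcripts of HOX, argonaute, catalase, Dsup, LEAM and MAHS. In GST, SOD, thioredoxin, CAHS and SAHS they were the called members (up to 6, by p), the 2 of highest mean TPM and the one with the largest fold change each way. Of transcripts without a name, 2 called each way were named by the smallest p among those of at least 50 TPM and no overlap. A reference table of gene names matched 0 identifiers, so no position or sequence is given. With 3 libraries against 3, a permutation test of a single value cannot go below p = 0.1, so family sums were not tested.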

Additional observations from a re-analysis of the deposited data

How the results depend on the processing

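The number of transcripts called was 1308, and stayed within 1.5 times that number under RLE and upper quartile factors, other filters, DESeq2, limma and counts summed by gene, where it ranged from 1145 to 1733. It was 3006 in a fit of the 6 libraries alone and 3392 with those of Juvenile 2d to 5d. Among the families it was 20, and 41 and 49 in these fits. Leaving out each library in turn gave 490 to 2265 transcripts, 6 to 37 family members, and 2324 to 4335 transcripts for Juvenile 5d against 2d (3467). With a term for the replicate number (replicate block) 1075 transcripts and 16 members were called, with 5 GSTs in place of 9 (g10962.t1, g4016.t1, g4017.t1 and g6233.t1 not called), SOD g11593.t1 not called and argonaute g4269.t1 called. The numbers mark no shared batch in the labels, and deviations of same-numbered libraries correlated at 0.193, 0.047 and 0.103. In CPM the ratio of summed levels was 0.874 for thioredoxins (0.678 in TPM) and 0.599 for CAHS and SAHS together (0.688). Without single libraries the summed ratios were 1.28 to 1.38 for HOX, 1.18 to 1.35 for argonaute, 0.497 to 0.587 for GST, 0.525 to 0.605 for SOD, 0.864 to 0.923 for catalase, 0.635 to 0.719 for thioredoxin, 0.376 to 0.451 for CAHS, 0.816 to 0.909 for SAHS and 0.66 to 0.734 for both.

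The naming rules picked 52 transcripts that were tested. Of these, 15 lost a call and 14 gained one under some alternative, and 6 changed direction, none of them called. The log2 fold change of Hox10_abdb-1 (g6414.t1) was −0.02 with upper quartile factors and ranged from −0.07 to 0.11 with a library dropped (negative without Juvenile 3d replicate 2). That of Hox4_disformed (g2153.t1) ranged from −0.06 to 0.16 (negative without the same library), that of Hox7_ftz (g6724.t1) from −0.01 to 0.32 (negative without Juvenile 4d replicate 3), and that of MAHS (g6834.t1) from −0.04 to 0.24 (negative without Juvenile 3d replicate 2). Argonaute-1 (g3665.t1) had 0.06 and 0.07 in limma on log2(TPM + 1) and log2(TPM + 0.1). SAHS g1676.t1 had −0.05 with upper quartile factors, −0.01 with counts summed by gene, and −0.12 to 0.15 with a library dropped, negative in 9 fits. The cause of these changes was not tested. With 3236622 counts in the smallest of the 6 libraries compared, members below 1 TPM rest on a few reads.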

Other observations

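Of the 715 tested transcripts that belong to 345 genes with more than 1 tested transcript, 4.06% were called higher and 1.54% lower, against 7.40% and 5.65% of the transcripts that were the only tested one of their gene. The reads of such genes are divided between similar sequences, and the part of this in these shares was not tested. In 1 of these genes a transcript was called higher and another lower. All tested transcripts were called higher in 3 genes and lower in 1.

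SOD g4645.t1, picked out after its values were seen, had 12.8, 0.500 and 0.189 TPM at Juvenile 3d and 54.9, 43.1 and 18 TPM at Juvenile 4d. Its Juvenile 3d libraries differed widely, with replicate 1 far above the others, and were all below those of Juvenile 4d, and it was not called (log2 fold change 2.95, SE 1.59, edgeR adjusted p = 0.257). At Juvenile 2d it was at 0.0705 ± 0.122 TPM, and edgeR called it higher at Juvenile 5d (adjusted p = 0.0161), with 55.2 ± 11.9 TPM.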
